A study of Mus musculus with 4 samples.

Results

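Peaks of the transcription factor ATF4 were described where a pair of neighbouring mouse genes lies close together, in the gap between both gene models. A gap was taken between adjacent protein-coding models that do not overlap and lie at most 1 kb apart on chromosomes 1 to 19. There were 1958 such gaps. Of the 41639 peaks of the series-wide list, 40722 lay on these chromosomes and 712 (1.75%) overlapped a gap by at least 1 bp. These 712 peaks lay in 708 gaps, and 4 gaps held 2 peaks. The rule used only where peaks and genes lie, and no peak strength, replicate list or sequence entered it.

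The peaks came from heart ventricle of mice aged 4 weeks, with 2 samples of ATF4 pull-down on streptavidin beads and 2 samples of input chromatin, which are not analysed here. No genotype or strain is given in the labels. In the field for the antibody, both pull-down samples carry the entry AAV and the input samples the entry none. The source of the tagged ATF4 is not stated further. Nothing in the labels states that both pull-down samples came from separate animals, and every SD below is the spread between these samples only. Fold is the authors' enrichment of a peak over a constant background. It is no ratio to input, and input was not compared with the peaks.

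A gene pair can be arranged in 3 ways. In a head-to-head pair both starts face the gap and the genes are read away from each other. Such pairs often share a short stretch of regulatory DNA, called a bidirectional promoter, which is typically rich in CpG dinucleotides and common at housekeeping genes. In a tail-to-tail pair both ends face the gap, and in a head-to-tail pair 1 start and 1 end do. ATF4 is the main transcription factor of the integrated stress response and binds as a dimer, either to composite elements with C/EBP proteins or to elements related to the cAMP response element (CRE). Strand was known for 16456 of 20661 protein-coding models (79.6%), which gave 548 head-to-head, 435 head-to-tail and 414 tail-to-tail gaps. In the other 561 gaps at least 1 gene had no strand.

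The sequences below show what lay under the summits of head-to-head gaps, and they come from RefSeq (GRCm38.p6). They are read 5′ to 3′ on the plus strand, so the right-hand gene is read onward and the left-hand gene backward. The capitals mark GATAA, the core letters of GATA factor sites, TGACG, the core of the CRE, and TGATGNAA, the core of the ATF and C/EBP composite, each on either strand (reverse complements of the first 2 are TTATC and CGTCA). The first 4 were chosen because they are strong, with series-wide folds of 32.4 or more, and hold GATAA.
Npc2 and Isca2 (chr12:84773132-84773232): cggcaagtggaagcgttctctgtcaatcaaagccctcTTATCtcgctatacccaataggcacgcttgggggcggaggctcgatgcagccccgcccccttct
Cops2 and Galk2 (chr2:125859066-125859138): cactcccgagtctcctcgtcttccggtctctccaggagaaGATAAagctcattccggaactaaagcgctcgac
Fam219a and Dnaic1 (chr4:41569608-41569676): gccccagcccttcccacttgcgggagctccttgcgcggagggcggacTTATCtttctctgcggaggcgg
Serinc4 and Hypk (chr2:121457007-121457107): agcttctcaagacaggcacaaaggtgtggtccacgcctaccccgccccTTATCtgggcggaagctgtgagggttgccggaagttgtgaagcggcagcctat

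The next 3 were chosen as strong head-to-head summits that hold none of the marked letters, or only the TGACG core.
Rsrc2 and Kntc1 (chr5:123749579-123749679): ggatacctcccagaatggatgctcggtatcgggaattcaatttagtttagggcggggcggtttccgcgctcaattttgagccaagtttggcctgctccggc
Alg12 and Creld2 (chr15:88819401-88819501): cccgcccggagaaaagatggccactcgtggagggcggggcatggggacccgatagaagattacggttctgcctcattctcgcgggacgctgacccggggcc
Pfdn6 and Wdr46 (chr17:33940314-33940397): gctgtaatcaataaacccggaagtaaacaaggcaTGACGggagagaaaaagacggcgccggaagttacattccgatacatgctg

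The last 5 were chosen for letters related to ATF4, whatever their fold, which was 12.4 at Mrpl49 and Fau and 9.75 at Ddx49 and Cope. The site in Yars is the single composite match within 50 bp of the 275 head-to-head summits whose sequence was read. The stretch of Ppp1r15a and Plekha4 is the whole gap with 30 bases of each gene, since its summit lies elsewhere.
S100pbp and Yars (chr4:129189895-129189924): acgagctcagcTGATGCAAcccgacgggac
Ppp1r15a and Plekha4 (chr7:45526239-45526359): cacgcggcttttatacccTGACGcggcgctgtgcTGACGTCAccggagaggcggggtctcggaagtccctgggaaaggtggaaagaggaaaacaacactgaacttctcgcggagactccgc
Mrpl49 and Fau (chr19:6057859-6057959): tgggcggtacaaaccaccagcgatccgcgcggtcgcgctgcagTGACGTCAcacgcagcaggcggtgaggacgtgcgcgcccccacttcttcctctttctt
Ddx49 and Cope (chr8:70302494-70302594): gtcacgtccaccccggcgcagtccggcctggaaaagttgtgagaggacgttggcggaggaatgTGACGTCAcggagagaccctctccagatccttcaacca
Rpl9 and Lias (chr5:65391423-65391523): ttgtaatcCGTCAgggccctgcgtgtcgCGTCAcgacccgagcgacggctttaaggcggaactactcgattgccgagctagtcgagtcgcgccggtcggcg

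Peaks lay in most head-to-head gaps and in almost no tail-to-tail gaps. Of all 1958 gaps, 708 (36.2%) were overlapped by a series-wide peak. The share was 70.3% of head-to-head gaps (385 of 548, 95% exact interval 66.2% to 74.1%), 31.7% of head-to-tail gaps (138 of 435, 27.4% to 36.3%) and 1.69% of tail-to-tail gaps (7 of 414, 0.682% to 3.45%). The 3 intervals do not overlap. They count gaps, which are not replicates of a condition, so no test was made. Head-to-head gaps were shorter, with a median of 101.5 bp against 381.5 bp for tail-to-tail and 449 bp for head-to-tail gaps. Shares at like gap length are given below.

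Each pull-down sample gave the same order. In replicate 1, 46.7% of all gaps were overlapped, and in replicate 2 the share was 48.0%; both lists are longer than the series-wide list. Head-to-head gaps had a peak in 85.4% (replicate 1) and 86.7% (replicate 2), head-to-tail gaps in 45.1% and 47.8%, and tail-to-tail gaps in 3.86% and 4.59%. Of the 548 head-to-head gaps, 452 (82.5%) had a peak in both replicate lists and 52 (9.49%) had none in any of the 3 lists.

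**Figure D1:**
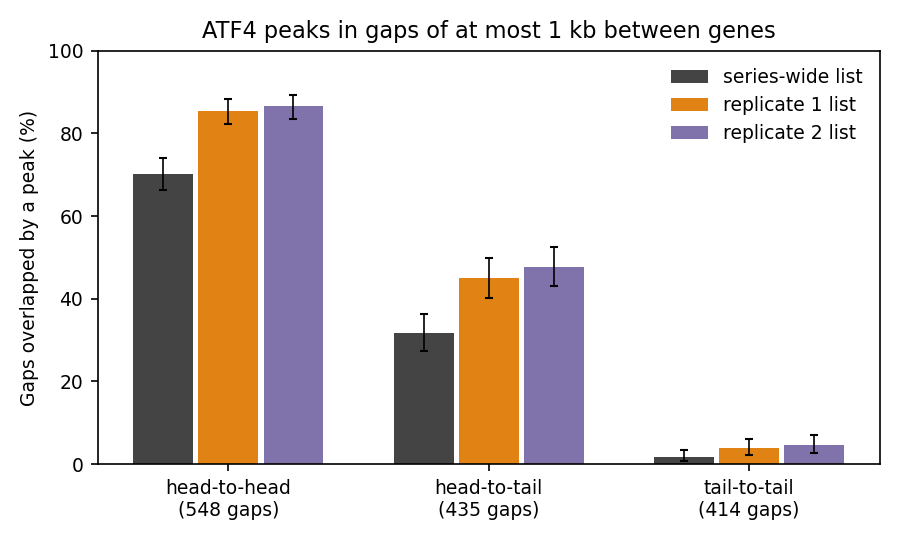
Percent of gaps of at most 1 kb overlapped by a peak, by arrangement of the gene pair; bars are the series-wide list and each replicate list, and error bars are exact 95% binomial intervals over gaps. In all 3 lists head-to-head gaps are highest (70.3%, 85.4% and 86.7%) and tail-to-tail gaps lowest (1.69%, 3.86% and 4.59%).

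The order held at every gap length examined. Among gaps of over 200 and up to 500 bp, a series-wide peak lay in 74.6% of 114 head-to-head, 34.7% of 144 head-to-tail and 0.847% of 118 tail-to-tail gaps. No tail-to-tail gap of up to 200 bp had a peak. This was 0 of 32 gaps of up to 50 bp, 0 of 43 of over 50 and up to 100 bp, and 0 of 67 of over 100 and up to 200 bp, with upper exact limits of 10.9%, 8.22% and 5.36%. Head-to-head gaps of at most 50 bp had a peak in 63.6% (91 of 143), and those of over 500 bp in 58.5% (24 of 41). Past the limit of 1 kb, head-to-head gaps of up to 2000 bp had 58.5% (31 of 53) and those of over 5000 and up to 10000 bp had 51.3% (134 of 261). Tail-to-tail gaps of the latter length had 14.3% (54 of 377). Peaks were more frequent in long than in short tail-to-tail gaps, while the share in head-to-head gaps was lower past 500 bp than between 50 and 500 bp.

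**Figure D2:**
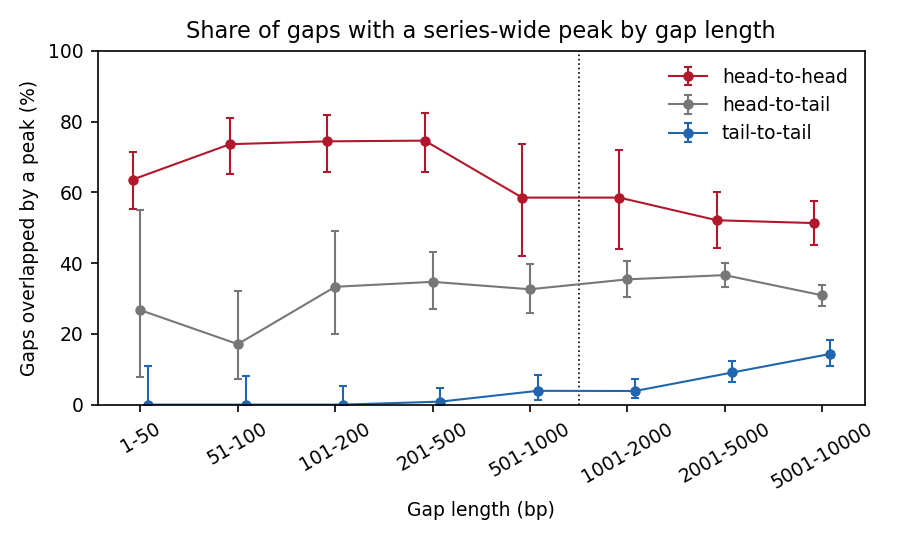
Percent of gaps with a series-wide peak (vertical axis) by gap length in bp (horizontal axis) for the 3 arrangements; points are shares, error bars exact 95% intervals over gaps, and the dotted line is the 1 kb limit. Head-to-head gaps lie between 51.3% and 74.6%, and tail-to-tail gaps between 0 and 14.3%.

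Just inside the limit, the head-to-head gaps with a peak were Frg2f1 and Foxj3 (891 bp, fold 21.0), Zfyve26 and Rad51b (958 bp, fold 15.1) and Pcgf2 and Psmb3 (1 bp short of the limit, fold 15.1). Just outside were Myd88 and Acaa1a (1009 bp, fold 11.5), Flii and Mief2 (1134 bp, fold 25.7) and Actr1a and Sufu (1154 bp, fold 11.5). Folds on both sides of the limit overlap.

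Gaps with a single known gene followed the side it turned to the gap. Where its start faced the gap, 57.3% of 178 gaps had a series-wide peak (49.7% to 64.7%). Where its end faced the gap, 12.3% of 228 did (8.32% to 17.3%). The 155 gaps with no strand on either side had 31.0%.

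Most summits lay near gene starts, which for head-to-head gaps follows in part from the rule. A peak had to touch the gap, and the head-to-head gaps with a peak had a median length of 105 bp. A summit inside a head-to-head gap of at most 200 bp is within 100 bp of a start by construction. In the 385 head-to-head gaps with a peak, the median distance from the summit to the nearer start was 46 bp, and 277 summits (71.9%) lay within 100 bp of a start. The summit was inside the gap in 159, in the left-hand gene in 131 and in the right-hand gene in 95. In the 138 head-to-tail gaps with a peak, the summit was nearer to the start than to the end in 115 and nearer to the end in 23. It lay within 100 bp of the start in 77 and within 100 bp of the end in 6. The median distance was 87 bp to the start and 411.5 bp to the end. Peaks in head-to-tail gaps thus mostly lay at the gene that starts there.

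The series-wide list holds merged peaks, and its summit can be that of a weaker part of a wide peak. Over the 380 head-to-head gaps with a peak in both samples, 346 series-wide summits equalled that of a replicate and 21 lay more than 100 bp from both. The latter peaks were wider, with a median of 1084 bp against 731 bp. With each sample's own strongest summit the share within 100 bp of a start was 70% in replicate 1 and 73.7% in replicate 2, against 71.8% in the series-wide list. The replicates placed 122 and 114 summits in the left-hand gene and 108 and 102 in the right-hand gene, against 131 and 94 in the series-wide list, so the larger share on the left was smaller in the samples themselves. Summit positions of named pairs below are those of the samples.

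**Figure D3:**
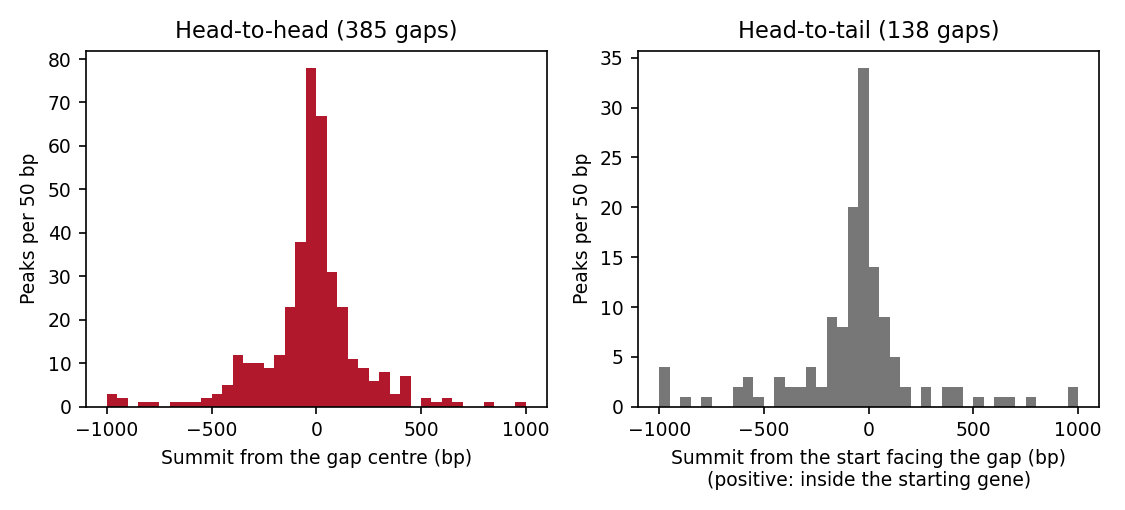
Left, distance in bp of the summit from the centre of the gap for 385 head-to-head gaps; right, distance from the start that faces the gap for 138 head-to-tail gaps, positive inside the starting gene. Bars count peaks per 50 bp, summits farther than 1000 bp are drawn in the outermost bars, and each distribution has its highest bar just left of 0. Summits are those of the series-wide list, which include the 21 head-to-head summits far from both replicates.

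Peaks in head-to-head gaps covered both starts more often than not, but were of ordinary strength. The peak covered the whole gap in 358 of 385 head-to-head gaps (93.0%), in 39 of 138 head-to-tail gaps (28.3%) and in 0 of 7 tail-to-tail gaps. These gaps differed in length, with medians of 105, 457 and 676 bp. Among head-to-head gaps with a peak, the whole gap was covered in 100% of 91 gaps of up to 50 bp. It was covered in 37.5% of 24 gaps of over 500 bp. Coverage was not compared between arrangements at like length. Median peak width was 734 bp for the 387 peaks in head-to-head gaps, 671 bp for 4227 peaks at other gene starts outside all gaps and 445 bp for all peaks on these chromosomes. Median fold was 13.0 in head-to-head gaps, 13.0 at other gene starts and 13.7 over all peaks. Peaks with a fold of 21.5 or more made up 14% of those in head-to-head gaps, 14.5% of those at other gene starts and 20.3% of all peaks. A second start within 1 kb went with more frequent peaks and not with a higher median fold.

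Gene starts themselves were compared over a fixed window, from 250 bases before to 50 bases after the outermost listed start. A series-wide peak overlapped the window of 32.5% of 16456 protein-coding genes. The share was 67.9% for 1096 starts of head-to-head pairs (65.0% to 70.6%), 37.2% for 435 starts that face a head-to-tail gap (32.7% to 42.0%) and 29.8% for 14925 other starts (29% to 30.5%). Head-to-head windows of the same pair share sequence, and 1 peak can count for both genes. In replicate 1 the shares were 83.2%, 54.3% and 40.6%, and in replicate 2 they were 84.7%, 55.2% and 42.1%.

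CpG content moved with these shares. Median CpG count per 300 bases was 23 at head-to-head starts and 14 over all starts. At like CpG count the head-to-head share was still the higher. With 20 to 29 CpGs a peak lay at 78.4% of 422 head-to-head starts and 54.9% of 3147 others, and with 30 or more at 67.8% of 295 and 46.2% of 2283. With 0 to 4 CpGs it lay at 11.1% of 45 and 3.25% of 4582. What part CpG content has in the peaks was not tested beyond these classes.

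The head-to-head gaps without any peak were poorer in CpG. Of the 52 gaps with no peak in any list, 16 (30.8%) had under 10 CpGs in the richer of both start windows, against 3 of 380 (0.789%) of those found in all 3 lists. The median was 19 CpGs over the 52, and some were rich in CpG, such as Tent4a and A930018O16Rik (57 CpGs) and B3galt6 and Sdf4 (48 CpGs). Also among the 52, and like these chosen for naming after their values were seen, were a pair of olfactory receptor genes (Olfr181 and Olfr183, 0 CpGs). Others were the dual oxidase gene Duox2 with its maturation factor gene Duoxa2 (19 CpGs) and Peg3 with Usp29, an imprinted pair (17 CpGs). In contrast, 111 head-to-head gaps with a peak in a replicate list but not in the series-wide list had a median of 28 CpGs, close to the 27 of gaps found in all lists.

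Both replicates gave like folds in the gaps. A fold in both samples was available for 380 head-to-head, 138 head-to-tail and 7 tail-to-tail gaps. Over the 380, the median was 11.5 in replicate 1 and 11.97 in replicate 2, and the median SD between them was 1.43 (11.3% of the mean). Replicate 1 was higher in 200 and replicate 2 in 180. Spearman's rho across these 380 peaks was 0.734 and Pearson's r was 0.917. The peaks are not independent replicates, they share both libraries, and their choice by the series-wide list favours peaks found in both.

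**Figure D4:**
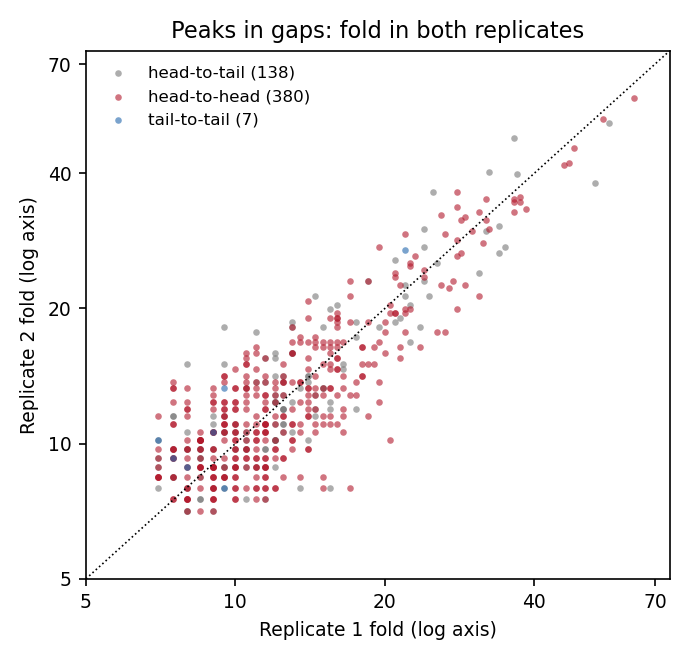
Fold in replicate 1 (horizontal) and replicate 2 (vertical), both on log axes, for 380 head-to-head, 138 head-to-tail and 7 tail-to-tail gaps; each point is the peak of 1 gap and the dotted line marks equal values. Points scatter around the line, and the highest point is Npc2 and Isca2 at 63.5 and 59.0.

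The strongest head-to-head peaks lay at genes of varied roles. Npc2, which encodes a lysosomal carrier of cholesterol, and Isca2, of mitochondrial iron-sulfur cluster assembly, share a gap of 117 bp (chromosome 12, 84773113 to 84773229). Its fold was 63.5 in replicate 1 and 59.0 in replicate 2, or 61.2 ± 3.22 (SD, n = 2), with the summit in the gap. Cops2, of the COP9 signalosome, and Galk2, a sugar kinase gene, are 26 bp apart (chromosome 2, 125859083 to 125859108). Their folds were 55.0 and 52.7, or 53.9 ± 1.59 (SD, n = 2), with summits 8 and 17 bp outside the gap. These were the only head-to-head gaps above a fold of 50 in either sample.

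Next came Hnrnph3, an RNA-binding protein gene, with Pbld2, where the folds were 48.0 and 45.7. The summits lay 178 and 188 bp outside the gap of 72 bp, while that of the series-wide peak, 2711 bp wide, lay 1502 bp away. Rsrc2 and Kntc1, a kinetochore gene, had 47.0 and 42.1, and Stap2, a signalling adaptor gene, with Mpnd had 46.0 and 41.7; both summits were inside the gaps. Tnfaip1 with Ift20, of transport in cilia, had 38.5 and 33.2, with summits 49 and 30 bp outside (612 bp in the series-wide list). Pfdn6, which encodes a prefoldin subunit, with Wdr46 had 37.5 and 35.5. Fam219a with Dnaic1, of the motor of cilia, had 36.5 and 35. Tbc1d10b with Mylpf, a fast muscle myosin light chain gene, had 28 and 36.3, with summits 421 and 423 bp outside the gap, and among the 12 strongest it alone had the higher value in replicate 2. Gm2436 and Srp54b, of the signal recognition particle, had 36.5 and 32.8; the like pair Gm2446 and Srp54c on the same chromosome had 36.5 and 34.1, and values at such copies are uncertain.

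Also among the 12 strongest was the 68 bp gap of S100pbp and Yars, the tyrosyl-tRNA synthetase gene (chromosome 4, 129189666 to 129189733), with folds of 37.5 and 34.6 and summits 163 and 176 bp away on the Yars side. That is where the printed composite site lies. Alg12, of N-glycan synthesis in the endoplasmic reticulum, and Creld2, a gene induced by stress of that organelle, share a gap of 327 bp (chromosome 15, 88819319 to 88819645) with folds of 36.5 and 34.6 and the summit inside. From the list of chaperone genes, and below the 12 strongest, Hspa1a and Hspa1l, which encode heat shock proteins of the Hsp70 family, share a gap of 546 bp with folds of 32.5 and 30.1. Hsp90b1, an endoplasmic reticulum chaperone gene, with Ttc41 had 29 and 22.6, with summits 259 and 286 bp outside the gap. Hspa1a has a near-identical copy, Hspa1b, so its values are uncertain.

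The list of 42 genes of the integrated stress response had 4 short gaps, and 2 of them had a series-wide peak, beside 36.2% of all gaps. Both with a peak were head-to-head and both without were tail-to-tail. Ppp1r15a, whose product restores translation after stress, and Plekha4 are 61 bp apart head to head (chromosome 7, 45526269 to 45526329). The folds were 27.5 and 23, or 25.3 ± 3.15 (SD, n = 2). The summits lay 1302 and 1322 bp from the gap on the Ppp1r15a side, while the gap itself holds a full CRE (TGACGTCA). Mthfd2, of mitochondrial folate metabolism, has a close neighbour on both sides. Its head-to-head gap of 22 bp with Mob1a had folds of 12 and 12.9, and its tail-to-tail gap of 758 bp with Slc4a5 had no peak in any of the 3 lists. Eif2ak4, which encodes the amino acid sensor kinase GCN2, and Srp14 are tail to tail and had none either.

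Within gene families the counts followed the arrangement. Of the short gaps with a gene of oxidative phosphorylation, 20 of 24 head-to-head and 0 of 8 tail-to-tail gaps had a peak. For mitochondrial ribosomal proteins the counts were 13 of 16 and 0 of 5, for cytosolic ribosomal proteins 8 of 10 and 0 of 6, and for proteasome subunits 6 of 7 and 0 of 5. RNA polymerase and TFIID genes had 11 of 12 and 0 of 6, and DNA repair and replication genes 22 of 27 and 0 of 10. Chaperone genes had 9 of 12 and 0 of 5, and zinc finger genes 12 of 15 and 0 of 12. Each stands beside 70.3% and 1.69% over all gaps, and in none of these families did a tail-to-tail gap have a peak.

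The strongest head-to-head gaps of these families were named because of their fold, so their place above the head-to-head median of 13.0 follows from that choice. Median folds of these families, over gaps of any arrangement, ran from 11.5 to 16.4. The lowest was that of oxidative phosphorylation and of the proteasome, the highest that of mitochondrial ribosomal proteins. Mrps18b with Ppp1r10, a phosphatase regulator gene, had 31.5 and 27.9, Polr1c with Yipf3 had 30 and 29.7, and Rpl9 with Lias, of lipoic acid synthesis, had 26.0 and 22.6. Vmac with Ndufa11, of respiratory complex I, had 20 and 18.6, and Psme2, a proteasome activator gene, with Rnf31 had 20 and 16. The exceptions without a series-wide peak included the head-to-head pairs Atp5md and Pdcd11, Mrpl32 and Psma2, and Ndufaf2 and Ercc8. All 3 had a peak in replicate 1, with folds of 6, 7 and 7, and the first also in replicate 2, with a fold of 8.42. These replicate 1 folds lie below 7.5, the lowest series-wide fold on these chromosomes. They were continued by the step of the list and match no fold of the authors. Histone genes had a peak in 6 of 10 head-to-head gaps, among them H2ac12 and H2bc12 with 14 and 15.5. Reads from the near-identical histone copies cannot be assigned with certainty, and these values are uncertain. Olfactory and vomeronasal receptor genes had a peak in 0 of 5 gaps, of which 1 was head-to-head, and keratin genes in 0 of 4, of which none was head-to-head. These numbers are too small to set apart from the 31.7% of all head-to-tail and 1.69% of all tail-to-tail gaps.

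Of the textbook bidirectional pairs, 6 had a short gap here, and all 6 had a series-wide peak, beside 70.3% of all head-to-head gaps. These were Atm with Npat, Brca1 with Nbr1, Mrps12 with Sars2, Psmb9 with Tap1, Pdcd10 with Serpini1, and Gart with Son. Among them are genes of the DNA damage response (Atm, Brca1), of mitochondrial translation (Mrps12, Sars2), of antigen processing (Psmb9, Tap1) and of purine synthesis (Gart). Folds were low to moderate, from 7.77 ± 0.329 (SD, n = 2) at Psmb9 and Tap1 to 13.7 ± 3.82 (SD, n = 2) at Brca1 and Nbr1, where the summit lay 25 bp outside the gap in replicate 1 and 596 bp in replicate 2. The models of 8 other pairs of the list, such as Hspd1 and Hspe1, overlap in this table and so form no gap, and Psmb1 and Tbp had no gap of at most 1 kb.

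The list of 44 heart muscle genes had 5 short gaps, of which 2 had a peak, beside 36.2% of all gaps. Among those without were Cox7a1, of the respiratory chain, with Capns1 (tail-to-tail) and Ldb3, of the sarcomere Z-disc, with Opn4 (head-to-tail). The strongest head-to-tail gap of all was that of Tnni3, the cardiac troponin I gene, and Dnaaf3, with folds of 56.5 and 51.9, with summits 217 and 219 bp outside the gap of 214 bp. Atp5d, of ATP synthase, with Midn had 53.0 and 38.1, or 45.6 ± 10.5 (SD, n = 2), with summits 796 and 799 bp outside; replicate 2 had a weaker peak of its own at the gap, with a fold of 9.75. Gabarap, of autophagosome formation, behind Ctdnep1 had 36.5 and 47.9, and Ak1, of adenylate kinase, behind St6galnac6 had 32.5 and 40.3; both summits lay inside the gaps. Myom1, of the sarcomere M-band, shares a head-to-head gap of 798 bp with Myl12a, with folds of 11.5 and 12.

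The 7 tail-to-tail gaps with a peak were mostly weak. Srebf2, which encodes a regulator of sterol synthesis, with Shisa8 had 22.0 and 27.0, with summits 232 and 233 bp outside the gap. No replicate 1 peak touched this gap itself, and the series-wide peak covered 2.9% of it. Map4 and Dhx30 had 9.5 and 13.3, Troap and C1ql4 had 9.0 and 10.6, and Ccndbp1 and Epb42 had 7.0 and 10.2. The fold of 7.0 lies below the lowest series-wide fold of 7.5 and was also continued by the step of the list. Replicate 2 was higher in 6 of the 7.

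In 7 gaps the series-wide peak had no counterpart in either replicate list, and all 7 lay beyond the last peak that either replicate list holds on its chromosome. Of these, Cbx5 and Hnrnpa1 (fold 29.3), and Prepl and Camkmt (fold 20.8) were the strongest head-to-head gaps. Gart and Son (fold 9.5) was also among them, so these values have no replicate check. Without such gaps the head-to-head share was 70%.

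Sequence letters were searched within 50 bp of the summit, on both strands, where a RefSeq start window held the whole stretch (275 head-to-head summits). The composite TGATGNAA was found at 1 of them (0.364%), the S100pbp and Yars site, against 1.02% of all 16456 windows of the same length that end at a gene start. The full CRE, TGACGTCA, was found at 9 (3.27%) against 1.67%, and its core TGACG, which every full CRE also holds, at 78 (28.4%) against 13.2%. At 2393 other summits at gene starts the shares were 1.50%, 3.13% and 19.9%. The ETS letters ACTTCCGG were at 10.5% of head-to-head summits, 6.23% of other summits and 2.94% of all windows, and the YY1 letters AAGATGGC at 4.00%, 1.84% and 0.523%. Median GC content was 62.4%, 63.4% and 59.4%, and median CpG count was 9, 8 and 5. The windows of all starts hold no base past the start, while summit windows can reach into a gene, so they differ in placement. Over the windows of 300 bases, which hold 50 past the start, YY1 letters were at 11.6% of head-to-head starts with a peak. They were at 4.97% of other starts with a peak and 3.21% of all starts. The ETS letters were at 14.9%, 10.5% and 5.44%. A match is a description and not a binding site. The part of base composition and of window placement in these shares was not tested.

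GATAA was searched after the summit sequences had been seen. Head-to-head summits were split by fold into 3 groups. GATAA was found in 4 of 105 windows of the weakest group (3.81%), 2 of 81 of the middle group (2.47%) and 18 of 89 of the strongest group (20.2%, exact interval 12.4% to 30.1%), against 7.10% of all windows that end at a start. With the summits and folds of each sample's own list the shares were 0.87%, 6.54% and 17.3% in replicate 1, and 1.53%, 2.86% and 18.6% in replicate 2. Over all 275 of these head-to-head summits GATAA was in 24 windows (8.73%). The core TGACG showed no such order, with 32.4%, 23.5% and 28.1% in the series-wide list. Median GC content fell over the same groups, from 64.4% in the weakest to 62.4% and 59.4%. The part of base composition in the GATAA order was not tested. Of 27 GATAA matches around head-to-head summits, 21 lay within 25 bp of the summit, and the median distance was 12 bp. Matches were sought only within 50 bp of the summit, so short distances follow in part from the search. At other gene starts, split at the same folds, GATAA was found in 3.70%, 5.96% and 21.5% of 864, 705 and 824 windows. The order was thus not particular to head-to-head gaps. Median GC content there was 65.3%, 63.4% and 60.4%. Over the longer start windows used above, GATAA was at 16.3% of head-to-head starts with a peak. It was at 17.1% of other starts with a peak and 22.7% of all starts. From weakest to strongest fold, head-to-head starts with a peak had 10.4%, 12.8% and 25.9%.

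**Figure D5:**
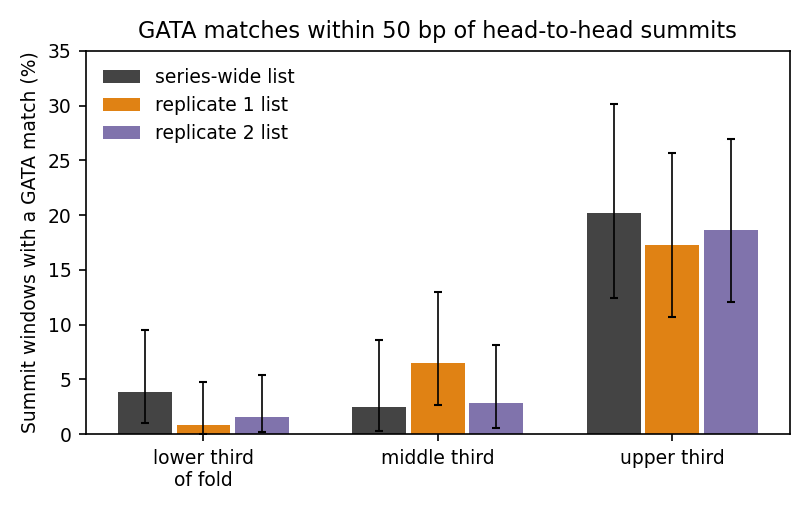
Percent of windows reaching 50 bp to each side of head-to-head summits that hold the GATA letters, for the summits split into 3 groups by fold, in the series-wide list and each replicate list; error bars are exact 95% intervals over windows. The strongest group lies at 20.2%, 17.3% and 18.6%, and the other groups at 6.54% or less.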

How the data were processed

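ATF4 pull-down was represented by 2 samples with a deposited peak list each and by a series-wide list, named as an IDR set, and 2 input samples are not analysed here. The submitters' processing notes list the tools Bowtie2, MACS2 and deepTools and the build mm10 without saying what each did. The replicate lists hold the authors' −log10 p-value or q-value per peak, as deposited, and the series-wide list holds the authors' deposited fold per peak, a ratio to a constant background. Starts of the replicate lists count from 1 and those of the series-wide list from 0; all positions here count from 1. Peaks of identical coordinates and summit (17420 and 21047, leaving out 6 that met a second fold) tied each −log10 value to a fold, and replicate folds were read from that relation and not scaled between samples. The lowest 4 and 5 values were continued by the step of the list, and 4 and 14 peaks were read between known values. A gap's replicate fold is the highest fold of a replicate peak that overlaps its series-wide peak. In all 701 gaps with both replicate folds, the higher of them equals the series-wide fold. Depth is unknown, and intervals (Clopper-Pearson, 95%) cover counting of gaps only.

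Gene models, strand and start windows came from RefSeq tables of GRCm38.p6, the assembly of mm10, which hold 250 bases before to 50 after a start and do not list every gene. A printed sequence holds at most 50 bases on each side of the summit and at most 30 bases of either gene; the Yars site is 30 bases around its match. No test was made, since there is 1 condition. Members, families and rules were chosen with earlier results of these data known; the TGACG core and GATAA were added after the sequences were seen. Named were the 12 strongest head-to-head gaps and 4 of each other arrangement with a peak in both replicates, the textbook pairs, the gaps next to the 1 kb limit, the strongest without a replicate peak, and in each family the up to 3 strongest gaps and the first 2 without a peak, of which the text gives a part. Serinc4 and Hypk, Mrpl49 and Fau, and Ddx49 and Cope were chosen for their sequence after it was seen. Tables were handled in pandas 2.3.3 and NumPy 2.4.6 under Python 3.11.15, intervals came from SciPy 1.17.1 and figures from Matplotlib 3.10.9. All value columns were mapped.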

Additional observations from a re-analysis of the deposited data

How the results depend on the processing

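The order head-to-head, head-to-tail, tail-to-tail held under all 9 alternatives, and 23 of 45 shares and median folds stayed within the interval of the reported value (for fold, within the median SD of 1.39). Values below are for all, head-to-head, head-to-tail and tail-to-tail gaps, as a percent with a peak, then the median fold where it moved. With the summit required inside the gap, all gaps gave 16.9%, head-to-head gaps 29% and head-to-tail gaps 19.1%. With at least 50% of the gap covered, all gaps gave 30.7% and head-to-tail gaps 18.6%. Restricted to peaks in the upper 20% by fold, the shares were 5.31%, 9.85%, 5.52% and 0.242%, and the median fold was 29.1. Gaps of at most 500 bp gave 41.1% for all and 0.385% for tail-to-tail gaps. With each replicate list alone the shares ran from 46.7% to 48.0%, from 85.4% to 86.7%, from 45.1% to 47.8% and from 3.86% to 4.59%, and the median fold from 10 to 10.2. In all 701 gaps with a peak in both replicates, the series-wide fold equals the higher replicate fold. A single replicate list thus gives an equal or lower fold there by construction, and each replicate list is also longer than the series-wide list. Fewer peaks or stricter overlap lower a share by construction. Otherwise the cause of these shifts was not tested. Alternatives chosen after seeing the data moved no value: without gaps past the last replicate peak the shares were 36.3%, 70%, 32% and 1.73% with a median fold of 13, and with each replicate's own summits 70% and 73.7% of head-to-head summits lay within 100 bp of a start. No paired analysis was possible because the input samples are not analysed here. Depth is unknown, so a gap without a peak cannot be told from one below detection.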
